A study of Mus musculus with 166 samples.

Results

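Oxidative phosphorylation genes of the nuclear genome were followed in cerebellar mRNA of mice from the Htt allelic series. Members were all genes whose symbol begins with Nduf, Uqcr, Cox4 to Cox8 or Atp5, plus Sdha, Sdhb, Sdhc, Sdhd, Cyc1 and Cycs, without names that contain "-ps". A member also needed at least 0.5 CPM (counts scaled to the library total) in at least 8 libraries. Of 16528 genes that passed this level, 94 were members. Symbols matched for 99 genes, and 5 of these did not pass: Atp5g2, which was listed at 0 in every library, Cox8c, and the genes Ndufa11b, Ndufs6b and Cox6c2, which GENCODE annotates as processed pseudogenes. The 94 comprised 45 genes under complex I names, 4 of complex II, 9 of complex III, the carrier Cycs, 19 of complex IV and 16 under complex V names. The 45 include 36 subunits, 8 assembly factors (Ndufaf genes, whose products help to build complex I and are not part of the finished enzyme) and Ndufb4c, annotated as a processed pseudogene that resembles Ndufb4. Ndufa4 and Ndufa4l2 are counted with complex IV, with which the Ndufa4 protein is found, and Atp5s is named for ATP synthase without being a subunit of its core. The label therefore holds for at most 84 of the 94 genes as subunits or electron carrier. These 84 still include Cox7a2l, a factor that joins complexes III and IV, and Ndufa4l2, a homologue of Ndufa4.

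All animals except the wild types were heterozygous for a knocked-in Htt allele with human exon 1 sequence and a CAG repeat, denoted by its labelled length (Q20, Q80, Q92, Q111, Q140 or Q175), on a C57BL/6 background. Wild type (WT) animals were littermates of the Q20 line only, the Q175 line arose by expansion of the repeat in the Q140 line, and each line is a single engineered allele. Cerebella were taken from both sexes at 2, 6 and 10 months, and 166 libraries of poly(A) RNA fell into 21 groups of genotype and age, 19 with 8 animals and 2 with 7 (Q111 and Q140 at 10 months). WT and Q20 together served as controls, as in the study, and lines were compared within an age, adjusting for sex. Labels of WT and Q175 animals at 6 months follow a separate naming scheme, and a term for it was added there. In effect Q175 was then set against WT, and the remaining lines against Q20.

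Complexes I to IV form the respiratory chain of the inner mitochondrial membrane. They pass electrons from NADH and succinate to oxygen, and complexes I, III and IV pump protons. ATP synthase, complex V, uses the proton gradient to make ATP. Most subunits are encoded in the nucleus and imported, while a small core set is encoded by mitochondrial DNA. Cerebellar granule and Purkinje cells, like other neurons, rely mainly on this pathway for ATP.

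Library totals were between 23448953 and 43066107 counts, so that 0.5 CPM stood for more than 10 counts in every library. The member transcripts were short, with a median length of 754 bases against 2601 bases over all genes tested (length was taken from the ratio of counts to FPKM, which divides fragments by transcript length and library size). This matters because libraries differed in how strongly short transcripts were counted. A length index was computed for each library from genes that are not members, as the slope of their log2 deviation on log2 length, and a low index marks a library with more counts on short transcripts. Across all 166 libraries, the median deviation of the 94 members followed this index with Pearson's r = -0.99, a description with no test, since both come from the same library. In 24 libraries the index was under -0.05, and there the members took 1.06 to 3.04% of all counts, against 0.763 to 1.07% in the 142 libraries kept. Of the 24, 16 were from 2 months (4 of the 8 WT and 4 of the 8 Q140 animals among them) and 4 each from 6 and 10 months. They were left out of every comparison, and the count with all 166 libraries is given where it differs from the main count. In 2 of the libraries kept (Q111 at 6 months, female 2, and Q111 at 10 months, male 1) the members stood low as a group, with median deviations of -0.34 and -0.31 on the log2 scale. Their connectivity, a standardized measure of likeness to the other libraries of the same age, was -6.255 and -8.045. Both values are under the -5 of the study's outlier rule, and male 1 also had the lowest total. The 2 libraries stayed in the main fits. Defining markers of granule cells (Gabra6, Cbln3), Purkinje cells (Pcp2, Car8), Bergmann glia and oligodendrocytes were counted in every library kept. The 9 skeletal muscle markers summed to between 0.932 and 17.2 CPM. Ckm, Myh1, Myh2, Myh4 and Tnni2 were at 0 in 92, 104, 122, 127 and 30 of the 142 libraries. The others, Acta1, Tnnt3, Mylpf and Mb, were counted in every library kept, with medians of 0.921, 0.185, 0.354 and 0.257 CPM.

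**Figure D1:**
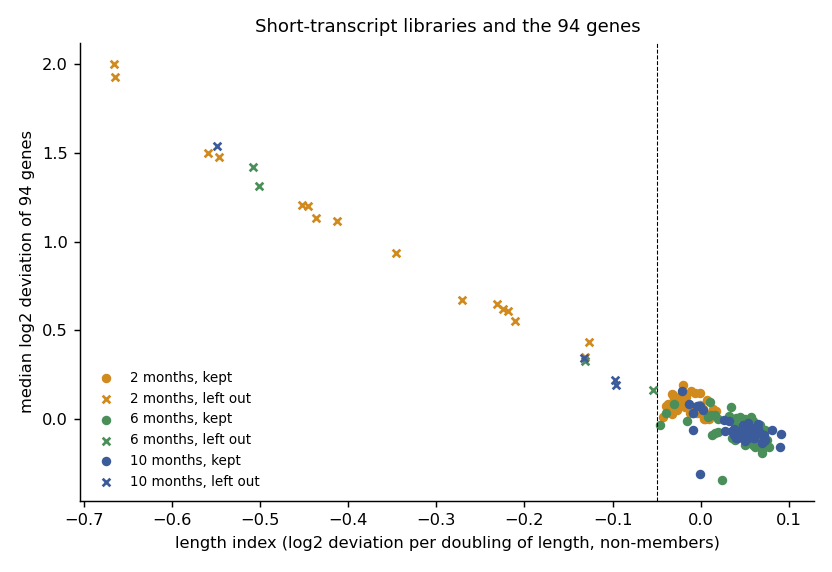
Each point is 1 of 166 libraries, with the length index on the horizontal axis and the median log2 deviation of the 94 genes from their median over libraries on the vertical axis. The 24 crosses left of the dashed line at -0.05 were left out, and the deviation of the 94 genes falls as the index rises, among the libraries kept too (r = -0.74, n = 142).

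Levels were compared per length, in FPKM of the 15 control libraries kept at 10 months, where the median gene tested had 7.60 FPKM. ATP synthase subunits were the most abundant, with a median of 159.5 FPKM over 15 subunits. Atp5b, the catalytic beta subunit, led all members with 629 ± 14.2 FPKM (SD, n = 15), and the lowest subunit of the complex was Atp5d, the delta subunit of F1, with 79.1 ± 8.16. Complex IV had a median of 112.7 FPKM over 19 genes and the widest spread. Its highest member was Cox4i1, the ubiquitous form of subunit 4, with 364 ± 21.2 FPKM, and its lowest was Cox6a2, a form of subunit 6a known from heart and skeletal muscle, with 0.873 ± 0.362.

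Complex III genes had a median of 96.9 FPKM, from Uqcrq at 49.5 ± 10.2 to Uqcrh, the hinge protein, at 262 ± 10.5. In complex II, succinate dehydrogenase, the flavoprotein Sdha had 169 ± 4.81 FPKM, the iron-sulfur subunit Sdhb 71.3 ± 3.52, and the membrane anchors Sdhd and Sdhc 63.1 ± 2.24 and 46.6 ± 2.12. The difference between Sdhb and Sdhd is larger than the SD of either, though their ranges over animals overlap (64.2 to 76.9 and 58.7 to 67.9 FPKM). Complex I subunits had a median of 72.6 FPKM, from Ndufa11 at 14.5 ± 1.25 to Ndufb8 at 137 ± 6.72. The 8 assembly factors lay lower, at 3.14 (Ndufaf8) to 18.2 FPKM (Ndufaf5). Cyc1, the cytochrome c1 of complex III, had 99.2 ± 3.48 FPKM, and Cycs, the mobile cytochrome c, 24.8 ± 1.25. Of the subunit c genes, which encode 1 mature ring protein of ATP synthase, Atp5g3 had 226 ± 7.98 FPKM and Atp5g1 90.9 ± 5.36. Atp5g2 was listed at 0 in every library. Whether this 0 is its level or comes from how reads were assigned to genes was not tested. Ndufb4 (16.6 ± 1.20 FPKM) and Ndufb4c (82.0 ± 6.04) may share reads, so their levels are uncertain.

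**Figure D2:**
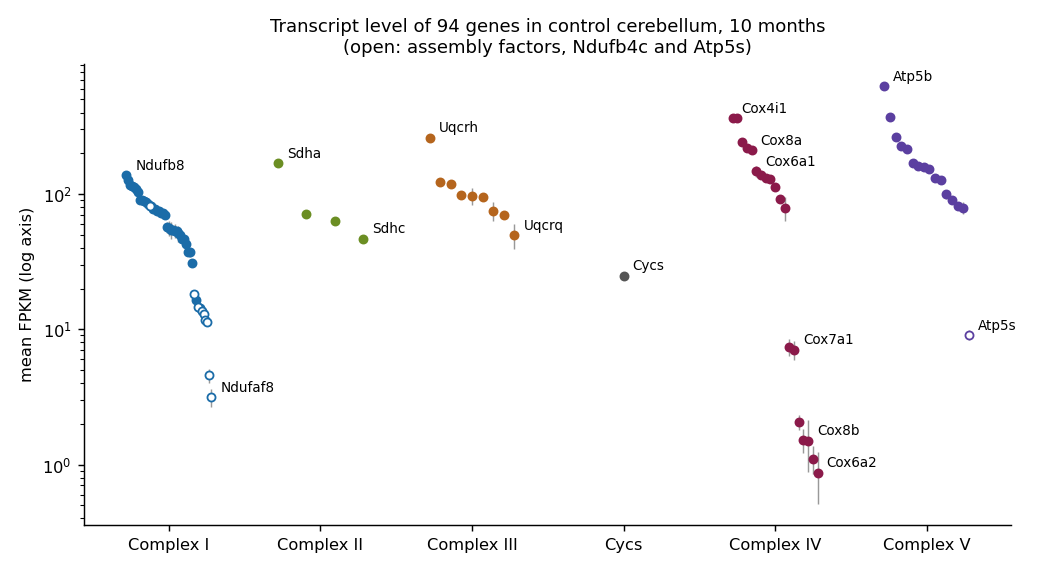
Mean FPKM on a log axis of the 94 genes in 15 control libraries at 10 months, grouped by complex, with bars for 1 SD and open circles for assembly factors, Ndufb4c and Atp5s. Atp5b is highest at 629 FPKM, and the tissue isoforms of complex IV (Cox6a2, Cox7b2, Cox8b and others) lie far under the other subunits.

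In Q175 cerebellum at 10 months most members kept close to control levels. Small increases were called for 11 of the 94 genes, and Cox6a2 was lower. The 11 were 5 ATP synthase subunits, 4 subunits of complex IV and 2 of complex I, and all of their log2 changes lay between 0.06 and 0.20. Over all genes tested 26.2% were called in this comparison (12.9% higher and 13.3% lower), against 12 of 94 members, or 12.8% (11.7% higher and 1.06% lower), so the members were called at less than the share of all genes. The median log2 change of the members was 0.04 and that of all genes -0.001, and 72 of the 94 estimates were above 0. With all 166 libraries in the fits, 1 member (Cox6a2) was called, and the direction of the 11 others was kept. With the length index as a covariate in the 142 libraries, 20 members were called, 16 higher and 4 lower, among them all of the 12. When the 16 libraries of connectivity under -5 were left out in place of those of low index, some calls were lost. They were those of Atp5a1, Atp5g1, Cox6a1, Cox6b1 and Ndufa1, with adjusted p between 0.0711 and 0.138.

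The length index of the 8 Q175 libraries was between -0.000514 and 0.0912 (median 0.0521), and that of the 15 controls between 0.0324 and 0.0894 (median 0.0428). Leaving out male 4, a Q175 library of low index (0.00291), lowered the count to 6, with Atp5b, Atp5g3, Atp5o, Cox8a, Ndufc2 and Cox6a2 kept. Leaving out female 3, the Q175 library of highest index, raised it to 22, the 12 included. Markers of the main cell types also moved. The summed Purkinje markers had 5696 to 7290 CPM in Q175 and 7054 to 8455 CPM in controls, and the granule cell markers 4227 to 4657 CPM in Q175 and 4377 to 5298 CPM in controls. Of the 7 Purkinje markers 5 fell and of the 7 granule cell markers 3, and the oligodendrocyte sum was 3172 to 4620 CPM in Q175 and 4142 to 6021 CPM in controls. The sum of Bergmann glia and astrocyte markers did not overlap, with 2758 to 2969 CPM in Q175 and 2985 to 3279 CPM in controls, and 4 of its 7 markers fell and 1 rose. Of the 6 microglia markers 2 rose, and their sum was 153 to 188 CPM in Q175 (median 166) and 135 to 175 CPM in controls (median 156). In bulk tissue, fewer cells of a type and less RNA per cell cannot be told apart, and the part of these shifts in the changes of the members was not tested.

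**Figure D3:**
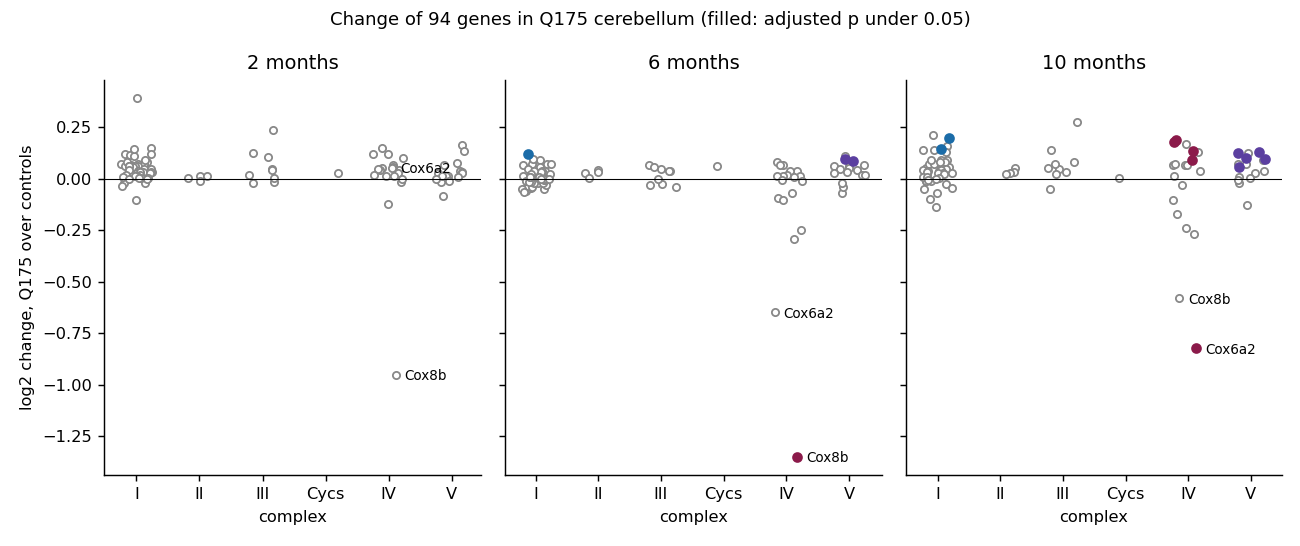
Log2 change of each of the 94 genes in Q175 over controls at 2, 6 and 10 months (vertical axis), by complex (horizontal axis), with filled points for an adjusted p under 0.05. No gene is filled at 2 months, 4 at 6 months and 12 at 10 months, and the points of Cox6a2 and Cox8b lie far under the rest at 6 and 10 months.

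ATP synthase held the clearest increases. Atp5b had 1220, 1263 and 1319 CPM in Q175 (lowest, median and highest of 8) and 1137, 1176 and 1237 CPM in controls (15), and 7 of the 8 Q175 libraries lay above every control. Its log2 change was 0.10 ± 0.023 (SE), with an adjusted p of 0.00135. Atp5o, which encodes the stalk subunit that confers oligomycin sensitivity, had 139.7, 148.7 and 159.7 CPM in Q175 and 127.2, 135.1 and 144.6 CPM in controls. Again 7 of 8 Q175 libraries were above all controls, and the log2 change was 0.12 ± 0.028 (adjusted p = 0.000537). Subunit c followed: Atp5g3 had 166.2, 178.0 and 196.1 CPM in Q175 and 157.9, 162.6 and 178.4 CPM in controls (0.13 ± 0.032, adjusted p = 0.00138). Atp5g1 had 79.6, 87.2 and 95.7 CPM in Q175 and 76.2, 80.3 and 86.4 CPM in controls (0.10 ± 0.035, adjusted p = 0.0282). For both, the groups overlapped, though every Q175 library of Atp5g3 was above the control median. The fifth call, Atp5a1, the alpha subunit of the catalytic head, was the weakest, at 0.06 ± 0.022 (adjusted p = 0.0488), and it kept its call in 19 of 50 fits that left out a library. For none of the 94 members at 10 months did the ranges of Q175 and control libraries separate, against 1.38% of all genes that lay wholly above and 1.03% wholly below.

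Complex IV showed both directions. Cox8a, the ubiquitous form of subunit 8, had 114.9, 126.4 and 181.4 CPM in Q175 and 103.5, 113.7 and 125.1 CPM in controls, with 5 of 8 Q175 libraries above every control and 1 (male 4) far above the others. Its log2 change was 0.19 ± 0.046 (adjusted p = 0.00188), and without male 4 it was 0.11 with the call kept. Cox6a1, the ubiquitous form of subunit 6a, had 74.0, 93.1 and 126.7 CPM in Q175 and 66.3, 86.9 and 94.2 CPM in controls. This overlap was wide, and the change of 0.18 ± 0.063 (adjusted p = 0.0318) was lost without male 4. Cox4i1 had 260.4, 297.8 and 353.5 CPM in Q175 and 232.1, 272.0 and 296.8 CPM in controls (0.14 ± 0.040, adjusted p = 0.00861). Cox6b1, a subunit on the face toward the intermembrane space, rose by 0.09 ± 0.033 (adjusted p = 0.0293). Calls of both were also lost without male 4.

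In complex I, 2 accessory subunits rose. Ndufc2 had 61.5, 66.7 and 72.1 CPM in Q175 and 49.3, 56.9 and 65.6 CPM in controls, the largest log2 change among the members that rose (0.20 ± 0.044, adjusted p = 0.000599). Ndufa1, encoded on the X chromosome, had 34.7, 36.7 and 44.8 CPM in Q175 and 31.3, 33.8 and 38.0 CPM in controls (0.14 ± 0.044, adjusted p = 0.0119). All 8 libraries of Ndufc2 in Q175 were above the control median, with 4 above the control maximum. None of the 7 core subunits, which carry the redox centres, and none of the 8 assembly factors passed the test. Complexes II and III and Cycs gave no call either. Their values were 0.03 ± 0.022 for Sdha (adjusted p = 0.413), 0.02 ± 0.031 for Sdhb, 0.04 ± 0.028 for Sdhc, 0.05 ± 0.030 for Sdhd, 0.05 ± 0.031 for Cyc1 and 0.002 ± 0.050 for Cycs. Sdha had 472.4, 484.6 and 500.1 CPM in Q175 and 454.7, 471.5 and 500.6 CPM in controls, so the ranges overlap, with all 8 Q175 libraries above the control median.

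**Figure D4:**
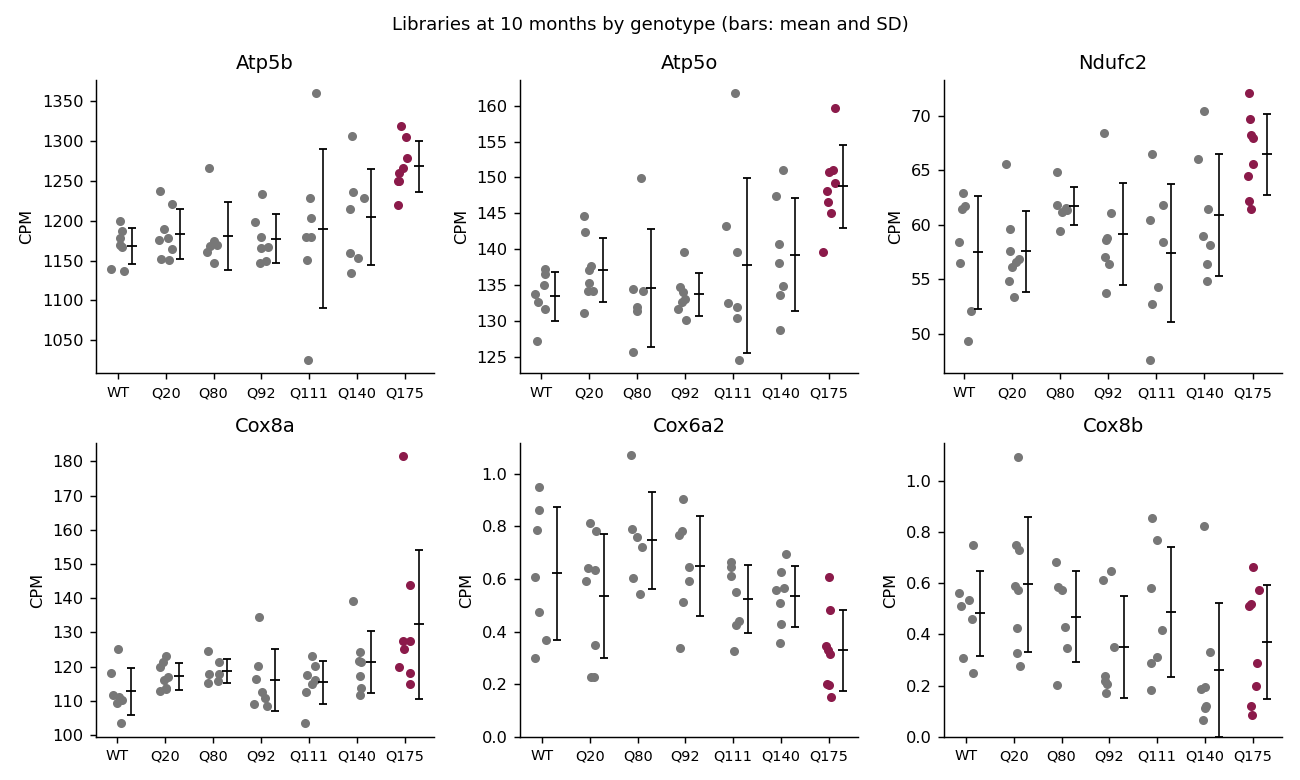
CPM of 6 genes in each library kept at 10 months (points) by genotype, with the mean and 1 SD beside them, and axes of Atp5b, Atp5o, Ndufc2 and Cox8a that do not start at 0. Atp5b in Q175 runs from 1220 to 1319 CPM and in controls from 1137 to 1237, the other lines overlap the controls, and Cox6a2 is lowest in Q175.

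Of the muscle-type isoforms of complex IV, Cox6a2 fell in Q175 at 10 months, and Cox8b and Cox7a1 did not pass. Cox6a2 and Cox8b are the forms of subunits 6a and 8 found in heart and skeletal muscle, and Cox7a1 is such a form of subunit 7a. In Q175 at 10 months Cox6a2 had 0.152, 0.323 and 0.606 CPM, against 0.228, 0.605 and 0.949 CPM in controls. Of the 8 Q175 libraries 7 were under the control median and 3 under the control minimum. The log2 change was -0.82 ± 0.237 (adjusted p = 0.00736), and it passed in all 13 alternative settings and all 50 fits without a library. Cox8b had 0.0847, 0.399 and 0.663 CPM in Q175 and 0.251, 0.534 and 1.09 CPM in controls at 10 months (-0.58 ± 0.337, adjusted p = 0.208). Cox7a1 had 1.72, 2.27 and 2.82 CPM in Q175 and 2.07, 2.40 and 3.19 CPM in controls (-0.17 ± 0.079, adjusted p = 0.101). At these levels Cox6a2 and Cox8b rest on few counts a library.

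Markers of other cells moved with them. Over the 142 libraries kept, log2 levels of Cox8b followed the summed choroid plexus markers with r = 0.65, and those of Cox6a2 followed the granule cell sum with r = 0.49 and the length index with r = -0.44 (-0.75 over all 166 libraries). The choroid plexus sum at 10 months was 177 to 2496 CPM in Q175 (median 539) and 195 to 4114 CPM in controls (median 1769). Skeletal muscle markers were low in both, with sums of 1.20 to 2.46 CPM in Q175 and 1.37 to 2.13 CPM in controls. Over the libraries kept, r with this sum was 0.25 for Cox6a2 and 0.07 for Cox8b. The granule cell sum was not used as a covariate, and its part in the Cox6a2 difference was not tested. These correlations describe libraries that share composition and depth, and no test is given.

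Start regions of the isoform pairs and of Atp5b are shown because the isoforms differ so far in level. RefSeq windows of 300 bases around the annotated start, on GRCm38.p6, matched 76 of the 94 members, with none for Cox6a2. Capitals mark matches, on either strand, to any of 3 motifs tied to this pathway: the NRF1 palindrome (the capitals in Cox6a1), CCGGAAGT (ETS factors such as GABP) and AAGATGGC (YY1). The windows are Cox8a on chr19:7217567-7217866 (minus strand), Cox8b on chr7:140900397-140900696 (minus), Cox6a1 on chr5:115348909-115349208 (minus) and Atp5b on chr10:128083057-128083356 (plus).
Cox8a: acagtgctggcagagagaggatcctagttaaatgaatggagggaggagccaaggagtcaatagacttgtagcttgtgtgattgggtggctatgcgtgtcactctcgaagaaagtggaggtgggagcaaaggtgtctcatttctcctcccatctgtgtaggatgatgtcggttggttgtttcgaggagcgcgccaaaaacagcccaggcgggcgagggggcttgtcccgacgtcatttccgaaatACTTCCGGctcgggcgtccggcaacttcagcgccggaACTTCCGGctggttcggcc
Cox8b: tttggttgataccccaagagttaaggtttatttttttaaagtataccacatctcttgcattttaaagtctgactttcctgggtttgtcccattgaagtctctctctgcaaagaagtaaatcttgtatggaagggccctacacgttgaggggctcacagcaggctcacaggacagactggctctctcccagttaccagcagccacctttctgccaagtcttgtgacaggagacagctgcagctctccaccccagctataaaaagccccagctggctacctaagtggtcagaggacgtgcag
Cox6a1: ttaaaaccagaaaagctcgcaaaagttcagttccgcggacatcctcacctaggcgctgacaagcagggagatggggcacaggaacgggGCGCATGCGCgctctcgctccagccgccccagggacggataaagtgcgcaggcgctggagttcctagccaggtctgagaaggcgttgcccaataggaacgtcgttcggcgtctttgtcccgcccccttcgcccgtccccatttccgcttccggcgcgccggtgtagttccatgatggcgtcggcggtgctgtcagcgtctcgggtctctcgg
Atp5b: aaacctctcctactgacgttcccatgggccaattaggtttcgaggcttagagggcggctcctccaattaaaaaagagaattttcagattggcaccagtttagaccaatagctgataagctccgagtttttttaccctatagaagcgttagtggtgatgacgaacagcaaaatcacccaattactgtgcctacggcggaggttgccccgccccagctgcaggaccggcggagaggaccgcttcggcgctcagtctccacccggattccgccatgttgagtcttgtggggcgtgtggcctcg

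Cox8a holds 2 ETS matches, starting 6 bases before and 31 bases after the annotated start, and Cox6a1 holds an NRF1 match starting 162 bases before it. Cox8b and Atp5b hold none of these letters, which says nothing about other forms of the motifs. The YY1 letters were in the windows of 11 of 76 members (14.5%) and of 3.19% of all 27025 genes with a window, the NRF1 letters in 6 (7.89%) and 1.07%, and the ETS letters in 5 (6.58%) and 4.31%. At least 1 of the 3 was found in 22 members (28.9%) and 8.22% of all genes. The 27025 genes were not limited to the 16528 tested here, so these shares do not compare members with genes of like expression. Of the 11 members that rose in Q175 at 10 months 9 had a window, and 2 of these held a match. A match is a run of letters and not a site shown to be bound.

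At 6 months the same comparison gave 3 higher members and 1 lower, or 4.26% of the 94, where 13.3% of all genes were called (6.80% higher, 6.46% lower). Atp5b had 1193, 1236 and 1262 CPM in Q175 and 1147, 1157 and 1193 CPM in WT (8 each), with a log2 change of 0.09 ± 0.019 (adjusted p = 0.000843). Atp5o was the only member whose ranges did not overlap, with 142.7, 147.4 and 154.8 CPM in Q175 and at most 142.2 CPM in the 14 controls (0.09 ± 0.030, adjusted p = 0.0257). Such separation upward was seen for 1.21% of all genes, and downward for 0.659%. Ndufa1 changed by 0.12 ± 0.040 (adjusted p = 0.0398). These 3 were called at both ages.

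Cox8b was the lower member at 6 months, with 0.0501, 0.220 and 0.505 CPM in Q175 and 0.171, 0.681 and 1.16 CPM in WT (-1.35 ± 0.422, adjusted p = 0.0246). Cox6a2 had 0.330, 0.451 and 0.690 CPM in Q175 and 0.341, 0.751 and 1.22 CPM in WT (-0.65 ± 0.234, adjusted p = 0.0569). The choroid plexus sum was 164 to 4055 CPM in Q175 (median 1331) and 207 to 3403 CPM in WT (median 2017). Cox8b stayed past the threshold in the alternative fit with a choroid plexus covariate. That covariate was the mean log2 level of the markers and not their sum, and the part of choroid plexus in the Cox8b difference was not tested. The granule cell sum was 4517 to 4899 CPM in Q175 and 5018 to 5705 CPM in WT, and the oligodendrocyte sum 3133 to 4229 CPM in Q175 and 4507 to 5354 CPM in WT. Neither pair of ranges overlaps, and the part of these sums in the values of Cox6a2 and Cox8b was not tested. The counterparts Cox8a (0.04 ± 0.054) and Cox6a1 (-0.005 ± 0.052) and the muscle form Cox7a1 (0.07 ± 0.107) did not pass. Neither did Sdha (0.03 ± 0.018), Cyc1 (0.04 ± 0.033), Cycs (0.06 ± 0.056), Atp5g3 (0.06 ± 0.033) and Atp5g1 (0.02 ± 0.040). With all libraries, no member was called at 6 months. Without the library set, when Q20 joins WT as the control of Q175, 15 were.

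At 2 months none of the 94 genes was called in Q175 by edgeR or DESeq2, and 0.0726% of all genes were. No member had separate ranges in Q175 and controls, against 0.0424% of all genes above and 0.0303% below. At an unadjusted p under 0.05 there were 21 of the 94 members, and 7.95% of all genes. Among the isoforms, the log2 values were -0.95 ± 0.468 for Cox8b (adjusted p = 0.626), 0.05 ± 0.186 for Cox6a2, 0.05 ± 0.082 for Cox7a1, 0.15 ± 0.060 for Cox8a and 0.12 ± 0.050 for Cox6a1. The median change of all 94 was 0.03, and the length index of the 6 Q175 libraries had a median of -0.0190, against 0.000664 in the 12 controls. Q140, Q111, Q92 and Q80 gave no member call at any age, by either tool. All-gene shares called were 0.182% and 0.00605% in Q140 at 6 and 2 months, 0.0182%, 0.0605% and 0.484% in Q111 at 2, 6 and 10 months, 0.0121% in Q80 at 2 months, and 0% in Q80 and Q92 otherwise. Over these and Q175 at 2 months, 13 contrasts in all, between 0 and 24 members had an unadjusted p under 0.05, against 3.04 to 14.8% of all genes. The 2 ranges do not run together. In Q140, 18 of the 94 members had such a p at 2 months, beside 3.04% of all genes, and 2 at 10 months, beside 14.8%. The median member change over the 13 contrasts lay between -0.03 and 0.06. The 24 were in Q140 at 6 months, where 11.0% of all genes had such a p, and the smallest p was that of Uqcrc1, a core protein of complex III (0.11 ± 0.037, adjusted p = 0.288). With all libraries, 3 members were called over the contrasts of Q80, Q92 and Q111, all in Q92 at 10 months. In Q140 at 10 months, where 2.43% of all genes were called, the log2 values were 0.04 ± 0.025 for Atp5b (adjusted p = 0.482), -0.09 ± 0.231 for Cox6a2 (adjusted p = 0.912) and -1.04 ± 0.376 for Cox8b (adjusted p = 0.142).

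Treating Q as a numeric variable gave no member at 2 months, 3 at 6 months and 7 at 10 months, where 0.0787%, 10.8% (5.81% positive, 4.97% negative) and 20.4% (10.2% each way) of all genes were called. The slope is the log2 change per 100 CAG. All 7 at 10 months were positive: Atp5o (0.07 ± 0.016), Atp5b (0.05 ± 0.013), Ndufc2 (0.10 ± 0.026), Cox8a (0.10 ± 0.026), Atp5g3 (0.07 ± 0.018), Cox6b1 (0.05 ± 0.018) and Ndufa1 (0.07 ± 0.025). At 6 months Atp5b (0.04 ± 0.011) and Atp5o (0.05 ± 0.016) were positive and Cox8b (-0.65 ± 0.211) negative. The other isoform slopes did not pass, with -0.35 ± 0.141 for Cox6a2 (adjusted p = 0.0679), -0.44 ± 0.189 for Cox8b (adjusted p = 0.0886), 0.08 ± 0.035 for Cox6a1 and -0.06 ± 0.048 for Cox7a1 at 10 months. At 6 months they were -0.31 ± 0.118 for Cox6a2 (adjusted p = 0.0843), 0.04 ± 0.026 for Cox8a, 0.01 ± 0.026 for Cox6a1 and 0.02 ± 0.053 for Cox7a1. With all libraries none passed at any age, and without Q175 none passed at any age either. Mean CPM of Atp5b at 10 months (± SD, n = 6 to 8) was 1168 ± 23.2 for WT, 1184 ± 31.4 for Q20 and 1181 ± 43.0 for Q80. It was 1178 ± 30.5 for Q92, 1190 ± 99.9 for Q111, 1205 ± 60.1 for Q140 and 1269 ± 31.8 for Q175. The Q175 mean is above the others, though 1 Q111 library reached 1361 CPM, more than any Q175 library.

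Meta-analysis of 6 and 10 months called 14 members with a positive and 3 with a negative slope, 18.1% of the 94, where 30.3% of all genes were called (15.2% positive and 15.1% negative). The 7 genes positive at 10 months were positive here too, led by Atp5b (0.05 ± 0.009, adjusted p = 5.51e-06) and Atp5o (0.06 ± 0.011, adjusted p = 4.14e-05). Among the other positive slopes were those of Ndufs4, an accessory subunit of complex I (0.04 ± 0.014, adjusted p = 0.0125), and Sdhd (0.03 ± 0.011, adjusted p = 0.0329). By complex, 5 of 16 under complex V, 4 of 19 of complex IV, 4 of 45 under complex I and 1 of 4 of complex II were positive, with none in complex III. Negative slopes were found for Cox8b (-0.55 ± 0.141, adjusted p = 0.00164), Cox6a2 (-0.33 ± 0.092, adjusted p = 0.00319) and Ndufa4l2, a homologue of Ndufa4 (-0.12 ± 0.049, adjusted p = 0.0471). All 3 are complex IV genes of low level, between 0.873 and 1.52 FPKM in controls at 10 months. Cox6a1 (0.05 ± 0.022, adjusted p = 0.135), Cox7a1 (-0.02 ± 0.036), Cyc1 (0.03 ± 0.012, adjusted p = 0.0537) and Cycs (0.01 ± 0.020) did not pass. With all libraries, 2 passed, Cox6a2 and Cox8b, and of the 14 positive slopes all but those of Atp5b and Atp5a1 were then below 0. The interaction of CAG length with age called no member, neither for 10 against 2 months (3.07% of all genes, 4 members and 15.0% of all genes at an unadjusted p under 0.05) nor for 10 against 6 months (0.0242% of all genes, 1 member and 6.00% of all genes at an unadjusted p under 0.05), with edgeR and DESeq2.

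In control mice the members were lower at 10 than at 2 months, and this difference moved with the length index. Of the 94 genes 66 were lower and 1, Sdha, was higher, against 17.7% lower and 16.2% higher over all genes (33.9% in all). The median change was -0.12 for the members and -0.001 for all genes. Falls were called for 30 of 45 genes under complex I, 3 of 4 of complex II, 7 of 9 of complex III, 10 of 19 of complex IV, 15 of 16 under complex V and for Cycs. Ndufc2 had 49.3, 56.9 and 65.6 CPM at 10 months (15 libraries) and 68.6, 73.1 and 77.1 CPM at 2 months (12), without overlap (-0.33 ± 0.034, adjusted p = 5.15e-08). Ndufb11 and Ndufc1, also accessory subunits of complex I, fell by 0.23 and 0.28. Subunit c fell with them, Atp5g3 by 0.20 ± 0.024 and Atp5g1 by 0.22 ± 0.027, as did the membrane subunit Atp5l by 0.21. Cox6a1 fell by 0.31 ± 0.041, Cox8a by 0.31 ± 0.041, Cox7a2 by 0.18 ± 0.022, Cyc1 by 0.14 ± 0.019 and Cycs by 0.13 ± 0.030. Sdha had 454.7, 471.5 and 500.6 CPM at 10 months and 420.7, 442.0 and 477.3 CPM at 2 months (0.10 ± 0.018, adjusted p = 0.00012), while Sdhb, Sdhc and Sdhd fell by 0.11, 0.07 and 0.10. Cox6a2 (-0.48 ± 0.204, adjusted p = 0.0696), Cox8b (0.51 ± 0.347) and Cox7a1 (-0.04 ± 0.080) did not pass.

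The index was 0.0324 to 0.0894 at 10 months and -0.0423 to 0.0144 at 2 months, so no control library of 2 months had an index within the range of 10 months. With the index as a covariate, 3 members stayed past the threshold, all lower (Atp5j, Ndufa4 and Cox7a2), where 2.08% of all genes did, and the members' median was -0.06. With all libraries 80 were called, with a median of -0.38. Age and length index cannot be told apart in these controls, nor can any batch shared by the libraries of an age, which the labels do not name.

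**Figure D5:**
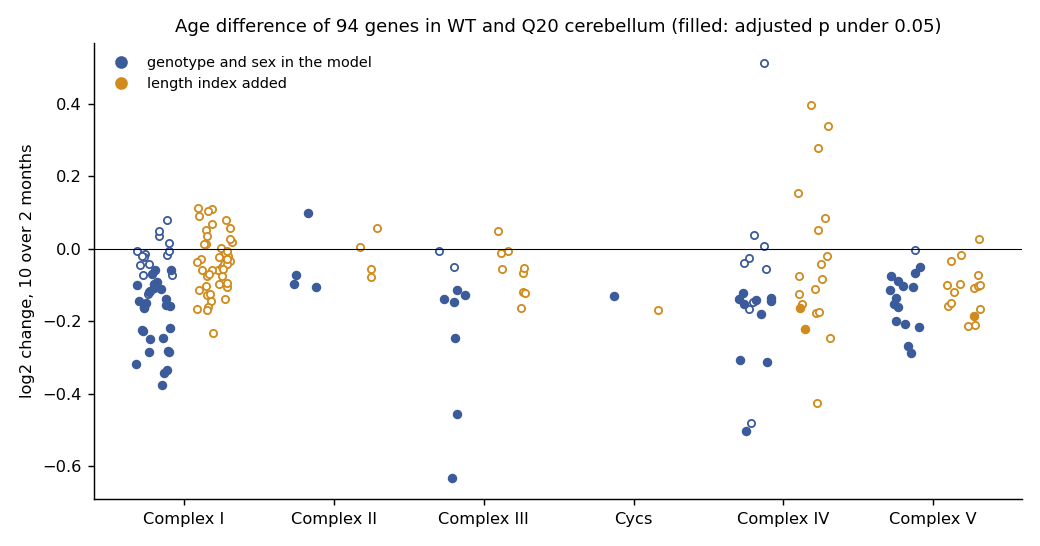
Log2 change at 10 over 2 months of each of the 94 genes in WT and Q20 cerebellum by complex, with genotype and sex in the model (left of each pair) and with the length index added (right), filled where the adjusted p is under 0.05. In the first model 67 genes are filled, in the second 3.

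Between males and females 1 member differed, where 9.02% of all genes did (4.28% higher and 4.74% lower in males). Cox6a2 was lower in males (0.597 ± 0.238 CPM in 71 male libraries and 0.737 ± 0.248 CPM in 71 female libraries, SD), a log2 change of -0.33 ± 0.079 (adjusted p = 0.00197). With all libraries it was -0.22 ± 0.114 with an adjusted p of 0.403. Ndufa1, though X-linked, was not called. Q20 and WT did not differ in any member at 2 or 10 months by edgeR or DESeq2. At an unadjusted p under 0.05 there were 6 members at 2 months and 1 at 10 months, beside 2.26% and 2.07% of all genes, and 0% and 0.00605% of all genes were called.

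Other genes of the pathway were taken from 4 lists. Of the 13 subunits encoded by mitochondrial DNA, 3 were lower and none higher in Q175 at 10 months (median -0.10), where 13.3% of all genes were lower and 12.9% higher: mt-Nd4l (-0.13, adjusted p = 0.0274), mt-Nd2 (-0.16) and mt-Nd4 (-0.12), all of complex I. In the meta-analysis 2 were negative, mt-Nd4l and mt-Co1, where 15.1% of all genes were negative and 15.2% positive. At 10 against 2 months in controls 7 rose and 1 fell, where 16.2% of all genes were higher and 17.7% lower. Of those, mt-Nd5 (0.24), mt-Nd6 (0.25) and mt-Nd1 (0.17) rose and mt-Nd3 (-0.14) fell. In males against females 4 fell, where 4.74% of all genes were lower and 4.28% higher. Of 36 further assembly factors tested, 6 fell and 2 rose in Q175 at 10 months, beside the same 13.3% lower and 12.9% higher of all genes. Bcs1l, which inserts the Rieske protein into complex III, changed by -0.26 (adjusted p = 0.000207), Lyrm7, its chaperone, by -0.25, Cox15 of haem A synthesis by -0.12 and Sdhaf3 of complex II by -0.16.

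Among 12 transcriptional regulators, Esrrg, an oestrogen-related receptor, fell (-0.23, adjusted p = 9.09e-06) and Nrf1 rose (0.11, adjusted p = 0.0196) in Q175 at 10 months. The coactivator Ppargc1a was not called. Over all genes 12.9% were higher and 13.3% lower in that comparison. In controls Ppargc1a (0.21) and Esrrg (0.15) were higher and Esrra (-0.25) and Ppargc1b (-0.20) lower at 10 than at 2 months. There, 16.2% of all genes were higher and 17.7% lower, and no more than 4 genes of a list are named. Of 14 tricarboxylic acid cycle genes, Idh3g, a regulatory subunit of isocitrate dehydrogenase, rose (0.13, adjusted p = 0.000193) and Ogdh fell (-0.10, adjusted p = 0.00358) in Q175 at 10 months. Beside them stand the same 12.9% higher and 13.3% lower of all genes. At 6 months Idh3g (0.12) and Idh3a (0.11) rose, where 6.8% of all genes were higher and 6.46% lower. At 2 months no gene of the 4 lists was called in Q175, where 0.0726% of all genes were.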

How the data were processed

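The authors deposited 2 tables of the mRNA libraries, expected counts and FPKM per gene. Reads were demultiplexed with CASAVA 1.8.2 per the submitters' processing notes, and for the aligner and genome build the entry is: not given in the sources used here. The deposited expected counts, which need not be whole (83.3% of the values were), were rounded to whole numbers. FPKM values, normalized by the authors for length and depth, were used for levels and for 1 alternative test. CPM is the count over the column sum.

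Genes with at least 0.5 CPM in at least 8 libraries were tested (16528 of 39179). Comparisons used the quasi-likelihood test of edgeR 4.0.16 in R 4.3.3, with TMM factors, sex as a covariate and two-sided p-values adjusted by Benjamini-Hochberg over all genes tested, and an adjusted p under 0.05 was called. Each age was fitted by itself with all genotypes sharing 1 estimate of the spread. WT was given a CAG length of 7. The 6 and 10 month slopes were combined by the sum of their signed Z values, and ages were compared by an interaction term. DESeq2 1.42.0, limma 3.58.1 on log2(FPKM + 0.1), RLE factors, no filter, other sets of libraries, covariates and controls, a replicate block and the fits without each library in turn were the alternatives.

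In each comparison up to 8 higher and up to 8 lower members of smallest p could be named, together with Cox6a1, Cox6a2, Cox8a, Cox8b, Cox7a1, the succinate dehydrogenase genes, Cyc1, Cycs and the subunit c genes, and up to 4 genes of each pathway list. These fixed genes are not all printed for every comparison. Cox6b1 and Atp5a1 in Q175 at 10 months, Uqcrc1 in Q140, and the 3 genes left at 10 against 2 months with the length index fall outside this rule and were picked with their values in view. The members and all lists were chosen with earlier results of these data known. Each library is a separate animal. In 2 libraries sex markers went against the label, and leaving them out is 1 of the alternatives. No column was left unmatched to a sample, and no 2 libraries held identical counts. The fitting code was tested on simulated data. A withheld item of the pathway lists is not reported here.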

Additional observations from a re-analysis of the deposited data

Results flagged for a closer look

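Sets of values, each of 1 gene in 1 group of genotype and age, were examined for a library far from the rest. Such a library was found in 4 of 72 sets, and the number that chance would give was not computed. Cox8a had 181.4 CPM in male 4 of Q175 at 10 months, with the nearest of the other 7 animals at 143.8 CPM. Cox8b had 1.55 CPM in male 4 of WT at 2 months (nearest 0.266 CPM), 0.974 CPM in male 1 of Q20 at 2 months (nearest 0.402 CPM) and 1.03 CPM in female 2 of Q20 at 6 months (nearest 0.362 CPM).

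The libraries left out were selected by a length index that the members' share follows, so their share restates that selection. In 24 of 24 the members took a larger share of counts than in any control library kept, where the highest share was 1.05%, and the highest share among the 24 was 3.04%. Over all libraries kept the highest share was 1.07%, above the lowest of the 24 (1.06%).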

How the results depend on the processing

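With all 166 libraries the calls in Q175 numbered 1 at 10 months and 0 at 6 months, the slopes gave 0 at 6 months, 0 at 10 months and 2 in the meta-analysis, Q80, Q92 and Q111 gave 3, and the sex comparison gave 0. There, the combined slopes turned to -0.0045 for Atp5o, -0.00099 for Ndufc2, -0.022 for Atp5g3, -0.014 for Ndufa1, -0.023 for Cox8a, -0.022 for Cox6b1, -0.010 for Ndufs4, -0.0091 for Atp5c1, -0.023 for Ndufs3, -0.028 for Cox4i1, -0.0077 for Sdhd and -0.024 for Cox7a2, and the 6 month slope of Atp5o to -0.057. With the length index as a covariate Q175 gave 20 calls at 10 months and 7 at 6 months, the slopes 12 at 10 months and 5 at 6 months, and 10 against 2 months in controls gave 3. Leaving out libraries of low connectivity in place of low index gave 2 for the 10 month slope, 4 for the slope at 10 minus 2 months and 2 for sex. In that setting Atp5a1, Atp5g1, Cox6a1, Cox6b1 and Ndufa1 lost their calls in Q175 at 10 months. Atp5a1, Atp5c1, Ndufs3, Cox4i1 and Sdhd lost theirs for the combined slope. Slopes without Q175 gave 0 at 6 months, at 10 months and combined. Without the library set, Q175 at 6 months had 15 calls, Q140 at 6 months 1, and Q80, Q92 and Q111 12. Without a filter the 6 month slope gave 1 and the combined slope 11. limma gave 2 in Q175 at 6 months, 1 in Q140 at 10 months and 1 for the 6 month slope. For sex, DESeq2, RLE factors, the index threshold of -0.02, the choroid plexus covariate and leaving out the 2 libraries of opposite sex markers gave 2 each. The causes were not tested.

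Leaving out 1 library gave 6 to 22 calls in Q175 at 10 months, 2 to 5 at 6 months (2 without Q175 female 2, WT female 3 or WT female 4), 0 to 1 in Q140 at 10 months (1 without male 1), 1 to 4 for the 6 month slope (1 without Q175 female 1, male 1 or male 4, or WT female 3 or female 4), 5 to 9 for the 10 month slope and 14 to 20 combined. With the replicate number as a block, Q175 had 12 calls at 10 months and 4 at 6 months, the 10 month slope 10 and the combined slope 20. Numbers do not pair the animals: the median correlation of same-numbered libraries at 10 months was 0.0826 and that of others 0.0840. Over the alternatives, the values of the genes recomputed one by one, which do not include the last 5 of those slopes, kept direction and call in 450 cases, lost the call in 83 and turned direction in 8. Depth limits Cox6a2 and Cox8b, at about 1 CPM or less in most libraries.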
